A study of Mus musculus with 8 samples.

Results

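The epidermal differentiation complex is a stretch of mouse chromosome 3 that holds gene families of the outermost layers of the skin. Its members were taken by symbol from the protein-coding genes of the GENCODE M21 annotation on that chromosome (S100a, Sprr, Lce and Flg genes, Ivl, Lor, Tchh genes, Rptn, Hrnr and Crnn), which gave 59 of 21938 protein-coding genes. They comprised 14 S100a genes, 15 Sprr genes, 21 Lce genes, 7 fused S100 type genes (Flg, Flg2, Hrnr, Rptn, Tchh, Tchhl1 and Crnn), and Ivl with Lor. The measured values used here were the positions and widths of accessible regions, and the rule for members used none of them.

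Accessible chromatin had been profiled with ATAC-seq, a method that uses the transposase Tn5 to place adapters in open DNA, in medullary thymic epithelial cells (mTECs) sorted by flow cytometry from the thymus of untreated wild-type BL6N6 mice a few weeks old. The 8 samples formed 4 groups of 2 biological replicates, namely Tspan8neg MHCIIlow, Tspan8pos MHCIIlow, Tspan8neg MHCIIhigh and Tspan8pos MHCIIhigh mTECs. Tspan8 is a tissue-restricted antigen expressed by a minority of mTECs, and the level of MHC class II (MHCII) separates stages of mTEC maturation. The study compared Tspan8pos with Tspan8neg and MHCIIhigh with MHCIIlow cells, but the 8 count columns carry names that match no sample label, so those comparisons and the depth of each sample are not analysed here, and each region may stem from 1 or more of the 4 groups.

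Keratinocytes of the upper epidermis replace their plasma membrane with a cornified envelope, a shell of proteins cross-linked by transglutaminases. Loricrin, involucrin and the Sprr and Lce proteins are building blocks of this shell, the fused S100 type proteins tie it to keratin filaments, and S100a proteins are small calcium-binding proteins with roles in many cell types. mTECs express skin proteins in part as self-antigens shown to developing T cells, and a late mTEC stage makes keratin 10 and involucrin and resembles cornifying skin.

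The labelled cell type was checked at marker genes. A promoter region, defined as a region whose centre lay between 1000 bases upstream and 100 bases downstream of an annotated transcript start, was present at 10 of 10 genes of thymic epithelium (Epcam, Krt5, Krt14, Krt8, Krt18, Cldn3, Cldn4, Foxn1, Aire and H2-Ab1). Of 4 genes of cortical thymic epithelium 2 had one (Prss16 and Ly75), and of 9 genes of thymocytes and other blood cells 0 had one. All 9 blood genes had promoters poor in CpG dinucleotides, and of all protein-coding genes of that class 15.2% had one.

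At the members, promoter regions were fewer than over all protein-coding genes, and none was called at an Lce gene. A promoter region was present at 10 of 59 members (16.9%, 95% Wilson interval 9.48 to 28.5), compared with 48.6% of all protein-coding genes. The 10 genes were S100a1, S100a14, S100a16, S100a6, S100a11, Sprr1a, Sprr2j-ps, Ivl, Crnn and Rptn. The S100a genes had 5 of 14 (35.7%, interval 16.3 to 61.2), the Sprr genes 2 of 15 (13.3%, 3.74 to 37.9), the fused S100 type genes 2 of 7 (28.6%, 8.22 to 64.1) and the Lce genes 0 of 21 (upper bound 15.5%). The intervals of the S100a, Sprr and fused S100 type genes overlapped, so their order is not fixed by these counts. Counting only regions of at least 200 bases left 6 members with a promoter region, and counting any overlap within 1000 bases of a start gave an S100a share of 64.3%, beside 63.1% of all protein-coding genes by that definition. All intervals cover counting error over genes only, since genes do not replicate the experiment. A missing region says that none was called in the merged set, and not that the chromatin was closed in every cell.

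**Figure D1:**
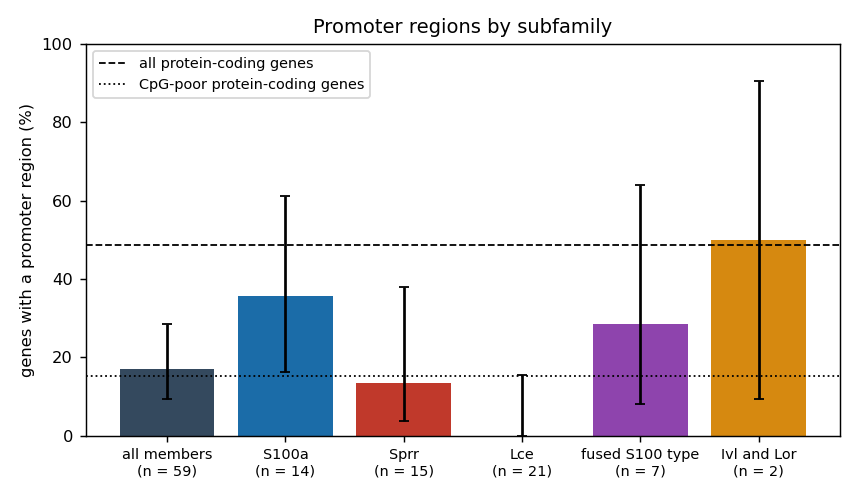
Share of genes with a promoter region (percent, vertical axis) for all 59 members and for each family, with 95% Wilson intervals as error bars. The dashed line marks 48.6% of all protein-coding genes and the dotted line 15.2% of protein-coding genes with CpG-poor promoters, and the bar of the 21 Lce genes is at 0.

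Promoters rich in CpG dinucleotides are accessible in most cell types, so the members were also set beside genes with CpG-poor promoters. The ratio of observed to expected CpG over the promoter window (the highest over a gene's starts) had a median of 0.174 at the 10 members with a promoter region, 0.0972 at the 49 without and 0.471 over all protein-coding genes. With CpG-poor defined as a ratio under 0.4, 56 members were CpG-poor, and 9 of them (16.1%, interval 8.69 to 27.8) had a promoter region, close to the 15.2% of all 9472 CpG-poor protein-coding genes. Of the other 12466 protein-coding genes 74.0% had one. At this cut the low share at the complex as a whole did not differ from that of CpG-poor genes beyond the counting interval. The background share moved with the cut. Under 0.3 it was 9.73%, beside 13.2% of 53 members, and under 0.5 it was 22.6%, beside 17.2% of 58 members. The median ratio of all members was 0.0978, far below the cut, so the class is not closely matched in CpG content. Within the CpG-poor members 4 of 12 S100a (interval 13.8 to 60.9), 2 of 15 Sprr (3.74 to 37.9), 0 of 21 Lce (0 to 15.5) and 2 of 6 fused S100 type genes (9.68 to 70.0) had a promoter region, and all of these intervals overlapped. Each of them also included the 15.2% of all CpG-poor protein-coding genes, so the absence at the Lce genes cannot be told apart from that share. The median ratio was 0.259 for S100a, 0.0936 for Sprr, 0.0799 for Lce and 0.0972 for fused S100 type genes, so the S100a promoters also held the most CpG. The highest value, 0.603, belonged to Flg and came from 1 of its 8 annotated starts.

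**Figure D2:**
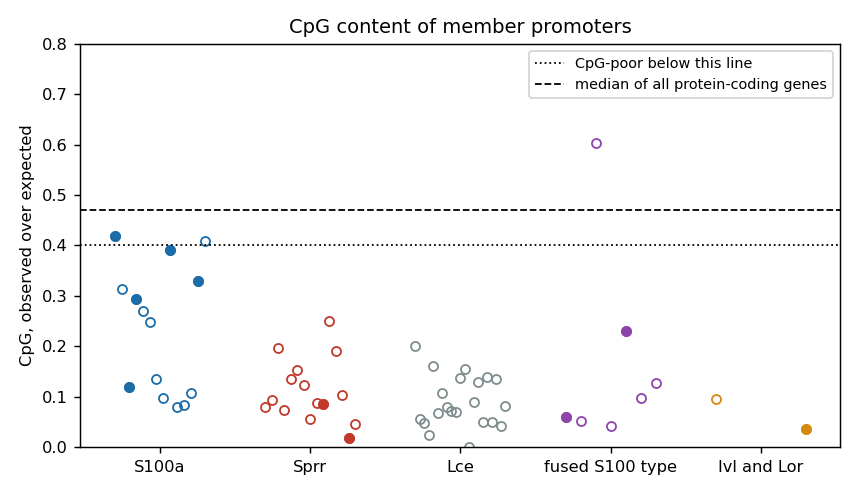
Observed over expected CpG of the promoter window (vertical axis, a ratio) for each member, 1 point per gene in genomic order within each family, filled where the gene had a promoter region. All but 3 members lie below the dotted line at 0.4, and the filled points span 0.0179 to 0.419.

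The S100a genes lie at both ends of the complex, with 12 of them in a first cluster and S100a11 and S100a10 at the far end, and both ends were dense in regions. The first cluster held 22 regions in 184.7 kb, or 11.9 regions per 100 kb (exact 95% Poisson interval 7.47 to 18.0), and the stretch from S100a11 to S100a10 held 7, or 15.9 per 100 kb (6.37 to 32.7). Chromosome 3 as a whole had 2.10 and the genome 2.16. S100a14, which is found in many epithelia, had a promoter region of 592 bases at chr3:90526582-90527173 (mm10, as are all positions), centred 8 bases downstream of a start and across its first exon and 5′ UTR. S100a16, its neighbour, had one of 123 bases at chr3:90537248-90537370 over an exon and the UTR. The region of S100a6 (calcyclin) at chr3:90612913-90613403 was 491 bases wide and also overlapped an exon and the UTR. S100a1, best known from heart muscle, and S100a13, which helps to export growth factors that lack a signal peptide, are transcribed away from each other, and a single region of 685 bases at chr3:90514320-90515004 spanned the starts of both. Its centre lay 270 bases upstream of a start of S100a1, which counts as a promoter, and 227 bases downstream of the start of S100a13, which does not. S100a11, a partner of annexin A1, had its region of 235 bases at chr3:93520243-93520477, outside any exon.

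Several S100a genes lay just outside the promoter definition. The nearest region of S100a3, known from the hair cuticle, was centred 108 bases downstream of a start (chr3:90586900-90587221, 322 bases), and that of S100a10, which pairs with annexin A2, 132 bases downstream (chr3:93555041-93555383, 343 bases). Both regions overlapped the start itself, as did the region at S100a13. The region nearest to S100a4, a gene known from fibroblasts and motile cells, was centred 830 bases downstream. S100a7a, the relative of psoriasin, had its nearest region 1228 bases upstream. S100a8 and S100a9 encode the subunits of calprotectin, which neutrophils hold in large amounts, and their nearest regions were 4594 and 14474 bases upstream. The region given to S100a1 by distance, at chr3:90508916-90509685, lay 150 bases from a start of Chtop, a gene that is no member. S100a2 and S100a5 had no region closer to them than to another member.

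Regions that overlapped a gene body extended by 5 kb on both sides were given to the member, among those overlapped, with the nearest start. At least 1 such region was present at 24 of 59 members (40.7%), compared with 74.7% of all protein-coding genes, whose median length of 17425 bases was longer than the 1773 bases of the members. By family, 13 of 14 S100a (all but S100a9), 5 of 15 Sprr, 1 of 21 Lce and 3 of 7 fused S100 type genes, and both Ivl and Lor, had one. In all 41 regions were given to 22 members, 27 of them to S100a genes, 5 each to Sprr and fused S100 type genes, 3 to Ivl and Lor and 1 to an Lce gene. Of the 41 regions 10 were the promoter regions, 16 had their centre in an intron, 5 in a coding exon and 10 outside the gene. Most went to S100a3 with 7, S100a6 with 4 and S100a11 with 4. The 7 regions of S100a3 were 67 to 524 bases wide, and the widest, at chr3:90560051-90560574, lay 24346 bases from the nearest S100a3 start of the basic annotation and 19152 bases from one of S100a16. It ended just before the first base of the annotated S100a3 gene, 90560578. The basic annotation has no transcript start there, its first for S100a3 being at 90584659, so this region was not counted as a promoter region. The widest of S100a6 lay in an intron at chr3:90614851-90615677 (827 bases), and the other 3 regions of S100a11 lay in introns between 571 and 2282 bases downstream of its start, at chr3:93520934-93521184, chr3:93521883-93522096 and chr3:93522707-93522832.

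The 10 promoter regions of members had a median width of 227.5 bases, with a range of 108 to 804. The median was 509 bases (quartiles 324 and 722) for the 10675 promoter regions of all protein-coding genes. Median GC content was 54.1% for members and 65.3% for all protein-coding genes. The 5 S100a regions had a median width of 491 bases, close to that of all protein-coding genes. The 2 Sprr regions were 108 and 804 bases wide, the 2 fused S100 type regions 129 and 220, and that of Ivl 172. Widths were not compared with those of CpG-poor protein-coding genes. Over the 41 regions given to members the median width was 214 bases, beside 212 bases over all 57124 regions, and 20 of the 41 were under 200 bases.

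**Figure D3:**
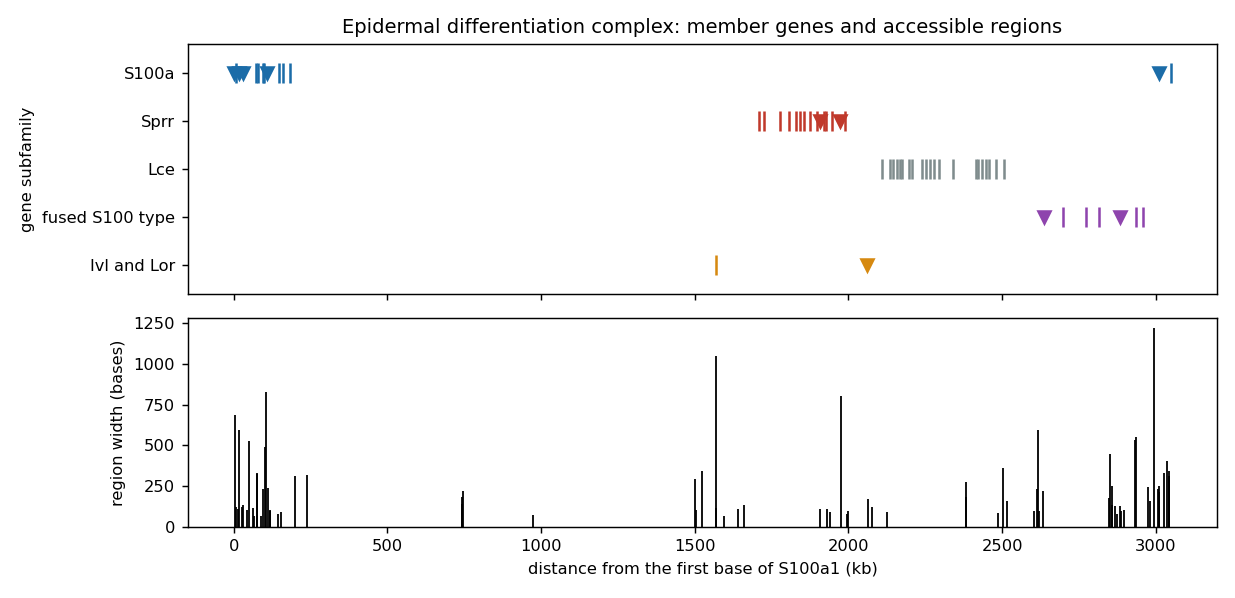
Top, position of the midpoint of each member gene along the complex (horizontal axis, kb from the first base of S100a1) by family, with a triangle for a member with a promoter region and a bar for one without. Bottom, the 77 regions of the span, the height of each line being the width of the region in bases, which shows the dense ends at the S100a genes and the long gaps over most Lce and Sprr2 genes.

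In the middle of the complex the Lce1, Lce3 and most Sprr2 genes, and Flg2, Flg and Hrnr, lay in long gaps between regions, while the middle as a whole was not sparse. From the first to the last member the complex spanned 3053.6 kb with 77 regions, or 2.52 per 100 kb (1.99 to 3.15). The middle, from Lor to Tchhl1, held 35 (2.51 per 100 kb, 1.75 to 3.50), with 4.71 per 100 kb from Sprr1b to Sprr4 (0.971 to 13.8), 3.67 over the fused S100 type genes (1.90 to 6.41), 1.25 over the Lce genes (0.407 to 2.92) and 0.458 over the Sprr2 genes (0.0116 to 2.55). The intervals of the Lce and Sprr2 genes both included the genome value of 2.16. The longest gap with members ran over 256.4 kb at chr3:92637719-92894144 and held 13 starts, from Lce1a1 to Lce1l. A gap of 247.8 kb at chr3:92170115-92417894 held 9 Sprr2 starts, from Sprr2a1 to Sprr2i. A gap of 215.2 kb at chr3:93144932-93360127 held Flg2, Flg and Hrnr, and one of 103.4 kb at chr3:92895450-92998839 held Lce3a to Lce3f. The median gap between neighbouring regions of the genome was 14.7 kb. Of 57103 gaps, 2.79% were at least as long as the longest of these and 8.74% at least as long as the gap of Lce3a to Lce3f. These shares count gaps, and long gaps hold more bases each. The share of the genome that lies in gaps as long was not computed. Gaps do not mark genes, since a stretch of 1384.5 kb without members between S100a9 and Lor held 9 regions (0.650 per 100 kb), with gaps of 528.6 and 503.1 kb.

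Among the Sprr genes, whose proline-rich products cross-link other envelope proteins, only Sprr1a had a wide promoter region. It was 804 bases at chr3:92485877-92486680, centred 384 bases upstream of the start. Most of it lay upstream, and its end reached over the start, at 92485895, into the first exon and its UTR. Sprr1b, its closest relative, had its nearest region 1619 bases upstream at chr3:92440354-92440462 (109 bases). Sprr4 and Sprr3 had theirs 4520 bases upstream and 6859 bases downstream. The second Sprr promoter region was 108 bases at chr3:92417895-92418002, centred 134 bases upstream of Sprr2j-ps, which is annotated as protein-coding in GENCODE M21 although its symbol marks it as a pseudogene. It was the only region among the 11 Sprr2 genes (218.1 kb). Its neighbours Sprr2i and Sprr2k had no region within 5 kb of the gene, and the nearest lay 9958 and 7826 bases from their starts.

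Reads that align to several places were removed in the processing, which can leave copied sequence without regions, so the share of 31-base words within 500 bases of each start that occur once in the genome was computed. At 9 members it was under 90% at 1 or more starts. At Sprr2a1, Sprr2a2 and Sprr2a3 the lowest share over the starts was 3.19, 2.06 and 9.27%, and at Flg 0%. Few reads can be placed uniquely at such starts. The 5′-most start of Flg had 100% with words of 31 and of 100 bases. The others of the 9, by their lowest start, were Sprr2b (87.3%), Sprr3 (81.8%), Lce1h (87.0%), Lce1j (75.4%) and Flg2 (84.6%). With the 5′-most start of each gene only, 7 members were under 90%, as Flg and Lce1j (95.6%) were then above it. With words of 100 bases only Sprr2a1, Sprr2a2, Sprr2a3 and Flg remained under 90%, and the lowest Lce value was 98.2%. Sprr2i, Sprr2j-ps and Sprr2k had 100% by both lengths. Sequence farther than 500 bases from a start was not examined in this way, and the part of multimapping in the missing regions was not tested.

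The sequences of the promoter regions that lie outside exons are shown because they are the stretches found accessible next to Sprr2j-ps, Ivl, Rptn and S100a11. They were read from the GRCm38 reference (mm10) on the strand of the gene, Ivl on the minus strand of chr3:92573779-92573950 and the others on the plus strand, Rptn from chr3:93393485-93393613. Capitals mark matches on either strand to AP-1 (TGANTCA), ETS (NNGGAAGT), KLF (GGGNGTGG), POU octamer (ATGCAAAT) and TATA box (TATAAA) letters. AP-1 is the factor family long known to act at envelope gene promoters in keratinocytes, and the ETS and KLF families include the factors that the study followed in mTECs.
Sprr2j-ps: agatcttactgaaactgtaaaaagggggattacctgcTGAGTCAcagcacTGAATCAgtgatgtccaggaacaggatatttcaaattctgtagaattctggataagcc
Ivl: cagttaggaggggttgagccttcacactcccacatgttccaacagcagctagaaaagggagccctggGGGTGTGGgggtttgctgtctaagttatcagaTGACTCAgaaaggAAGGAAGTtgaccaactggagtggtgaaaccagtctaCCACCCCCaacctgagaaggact
Rptn: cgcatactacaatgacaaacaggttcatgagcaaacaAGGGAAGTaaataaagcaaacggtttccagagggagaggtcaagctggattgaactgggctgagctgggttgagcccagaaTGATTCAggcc
S100a11: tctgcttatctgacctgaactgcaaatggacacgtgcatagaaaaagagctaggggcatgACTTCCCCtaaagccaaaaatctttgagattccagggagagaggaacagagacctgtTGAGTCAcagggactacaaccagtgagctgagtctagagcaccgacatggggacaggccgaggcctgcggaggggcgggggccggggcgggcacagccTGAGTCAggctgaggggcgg

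Each of the 4 held at least 1 AP-1 match, and the regions of Ivl, Rptn and S100a11 also held an ETS match. In the region of Ivl the AP-1 match lay 113 bases and the ETS match 100 bases upstream of the start, with KLF matches on both sides of the pair. Over all 10 promoter regions of members AP-1 matched in 5, ETS in 5, KLF in 5, the TATA box in 3 and the POU octamer in 0. The 10675 promoter regions of all protein-coding genes had a larger median width. Their shares were 9.51% for AP-1, 33.7% for ETS, 34.4% for KLF, 5.57% for the TATA box and 1.74% for the POU octamer. Of the 41 regions given to members 12 held AP-1, 9 ETS, 17 KLF, 4 TATA box and 0 POU octamer letters. Over all 57124 regions AP-1 was in 21.3%, ETS in 20.8%, KLF in 16.5% and the POU octamer in 1.95%, and the TATA box in 3769 regions. A match is a string of letters and was not tested for binding.

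For a window of fixed size, RefSeq promoters (GRCm38.p6, 250 bases before a start and 50 after it) were available for 54 of 59 members, as 58 promoters. AP-1 letters were in 18 of 58, compared with 6.99% of 21238 protein-coding promoters and 11.4% of the 8369 whose own CpG ratio was under 0.4. The TATA box was in 41.4%, compared with 12.6 and 21.9%. The POU octamer was in 12.1% against 1.66 and 2.22%, ETS letters were in 18 of 58 against 24.6 and 23.0%, and KLF letters in 6.90% against 19.4 and 13.6%. The families differed widely in these letters. AP-1 was in 9 of 14 Sprr, 5 of 7 fused S100 type, 2 of 15 S100a and 0 of 20 Lce promoters, and in those of both Ivl and Lor. The POU octamer was in 7 of 14 Sprr promoters and in 0 of the other families. AP-1 letters were in 6 of 9 promoters of members with a promoter region and in 12 of 49 of those without. Members of a family descend from common ancestors, so these promoters are not independent, and no test was made.

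Sprr1a and Crnn had a promoter region, and Sprr2i and Sprr2k had none. The 250 upstream bases of their RefSeq promoters are shown side by side. They lie at chr3:92485882-92486131 on the minus strand for Sprr1a, and on the plus strand at chr3:93144539-93144788 for Crnn, chr3:92407741-92407990 for Sprr2i and chr3:92432332-92432581 for Sprr2k. The capitals mark the same letters.
Sprr1a: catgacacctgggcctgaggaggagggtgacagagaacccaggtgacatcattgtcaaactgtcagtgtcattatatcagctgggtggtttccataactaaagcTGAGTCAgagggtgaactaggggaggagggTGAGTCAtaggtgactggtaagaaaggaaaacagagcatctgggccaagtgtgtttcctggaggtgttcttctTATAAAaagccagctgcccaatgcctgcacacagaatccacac
Crnn: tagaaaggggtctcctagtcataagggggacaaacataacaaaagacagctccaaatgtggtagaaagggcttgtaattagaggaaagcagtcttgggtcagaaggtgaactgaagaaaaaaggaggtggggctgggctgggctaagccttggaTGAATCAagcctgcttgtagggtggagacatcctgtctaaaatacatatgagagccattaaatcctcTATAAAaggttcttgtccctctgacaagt
Sprr2i: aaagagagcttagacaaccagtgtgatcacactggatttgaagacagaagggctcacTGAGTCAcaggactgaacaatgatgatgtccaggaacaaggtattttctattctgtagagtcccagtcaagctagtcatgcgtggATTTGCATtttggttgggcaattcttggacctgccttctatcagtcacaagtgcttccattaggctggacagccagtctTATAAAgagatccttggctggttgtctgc
Sprr2k: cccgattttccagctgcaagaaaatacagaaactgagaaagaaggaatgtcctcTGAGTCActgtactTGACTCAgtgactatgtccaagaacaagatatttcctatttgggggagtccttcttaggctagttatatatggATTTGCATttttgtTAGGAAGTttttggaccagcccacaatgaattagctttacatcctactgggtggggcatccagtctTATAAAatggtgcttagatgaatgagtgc

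All 4 held the TATA box letters and at least 1 AP-1 match, and Sprr2i and Sprr2k also held a POU octamer, which Sprr1a and Crnn did not. The AP-1 match of Crnn, at chr3:93144693-93144699, lay outside its called region, which held no AP-1 letters. Sprr2i and Sprr2k do not stand for the Lce genes, none of whose 20 promoters held AP-1 letters. The region of Sprr2j-ps was aligned to the 10 other Sprr2 genes to see whether they hold the same stretch. The best match within 1000 bases of a start was 63.0 to 75.7% identical, highest in Sprr2e, with 70.7% in Sprr2i and 70.4% in Sprr2k. In the 4 other Sprr genes it was 55.9 to 58.4% identical, not far below the lowest Sprr2 value. Sprr2a1 and Sprr2a2 share the same stretch, so the 10 genes gave 9 distinct places. Each of these held an AP-1 match, and among them only that of Sprr2k held 2, as the region of Sprr2j-ps does. The stretch of Sprr1a, at 56.0% identity, also held 2. The stretches were picked by likeness to a region that holds AP-1 letters, which favours finding such letters in them.

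The Lce genes, late components of the envelope, were the family with the fewest regions. The nearest region lay at a median distance of 41574 bases from their starts, between 4426 bases for Lce1m and 127392 bases for Lce1h. The single region given to them, at chr3:93014455-93014812 (358 bases), lay 4426 bases downstream of Lce1m and 1036 bases from the start of Crct1, a gene that is no member. Lce3f was next with 6655 bases. The 35 members of all families without a region within 5 kb of the gene had their nearest region at a median of 45750 bases, and for 6 of them it was over 100 kb away.

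**Figure D4:**
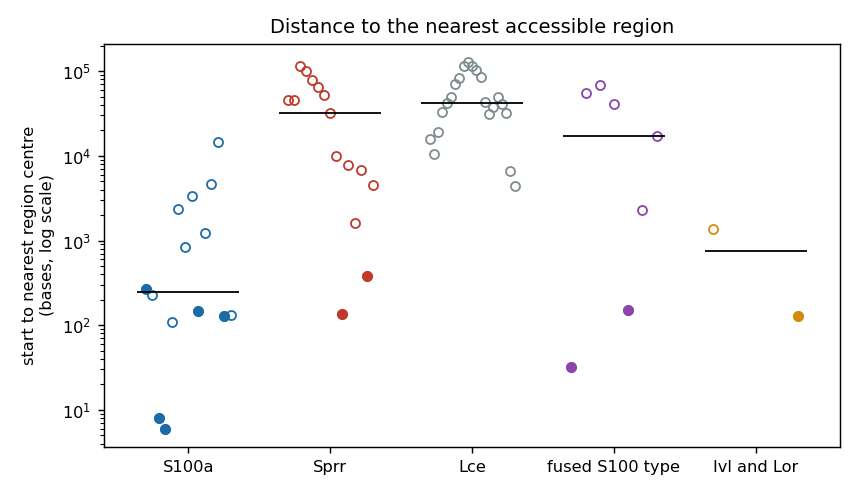
Distance in bases from a start of each member to the centre of the nearest region (log scale), 1 point per gene in genomic order within each family, filled for members with a promoter region, with the family median as a bar. The medians were 248.5 bases for S100a, 32248 for Sprr, 41574 for Lce and 16984 for fused S100 type genes.

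Of the fused S100 type genes, Crnn and Rptn had accessible promoters. Crnn (cornulin), known from the oesophagus and other squamous epithelia, had a region of 220 bases at chr3:93144712-93144931, centred 32 bases downstream of a start and across an exon and the UTR. Rptn (repetin), an envelope protein of the upper epidermis, had the region of 129 bases shown before, centred 150 bases upstream. A further region of 97 bases at chr3:93398573-93398669 lay in its coding exon. Filaggrin, which bundles keratin filaments, and its relatives had none nearby, with the nearest region 68016 bases from Flg, 55388 from Flg2 and 40466 from Hrnr. Tchhl1 had its nearest region at 16984 bases. Tchh (trichohyalin), a protein of the hair follicle's inner root sheath, had no promoter region but a pair of regions inside its coding exon, at chr3:93444353-93444888 (536 bases) and chr3:93447251-93447801 (551 bases).

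Ivl and Lor, the classical envelope precursors, differed in where their regions lay. The region of Ivl (involucrin, an early scaffold of the envelope) was 172 bases wide and centred 130 bases upstream of the start. Lor (loricrin, the most abundant envelope protein of the epidermis) had no promoter region. Both of its regions lay in the coding exon, at chr3:92080532-92081578 (1047 bases, 73.6% GC) and chr3:92081716-92081830 (115 bases, 69.6% GC), with centres 2087 and 1369 bases downstream of the start. The wider was the widest of all 41 regions given to members. The regions in coding exons of Lor and Tchh had 61.0 to 73.6% GC, compared with 49.5% in the coding exon region of Rptn and a median of 53.9% over all regions, and whether base composition had a part in their being called was not tested.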

How the data were processed

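ATAC-seq reads of 8 samples of sorted mTECs had been aligned to mm10 with Bowtie2, filtered with SAMtools to drop mitochondrial, multimapping and poorly aligned reads, and freed of duplicates with Picard by the authors, who called broad peaks with MACS2 and merged them with bedtools. Whether peaks came from single or pooled samples is not given in the sources used here. Per the file headers, reads were counted with featureCounts 2.0.3. The deposited values used were each region's start, end and width in bases. The 8 deposited count columns match no sample label and were not used, so depth is not analysed here and no count test was made.

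The members and lists were chosen with earlier results of these data known. Every member is accounted for, and those with a promoter region or with the most regions are given with coordinates. Starts came from the basic set of GENCODE M21, and shares have 95% Wilson intervals. Motifs, words and sequences were read from GRCm38 and the RefSeq promoter table. Sprr2 stretches were chosen by best alignment. The functions were tested on simulated data. The scripts used numba 0.67.0, matplotlib 3.10.9, scipy 1.17.1, pandas 2.3.3 and numpy 2.4.6 under Python 3.11.15.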

Additional observations from a re-analysis of the deposited data

How the results depend on the processing

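In all 41 alternatives were tried over 10 results, and 32 stayed within the spread set for them. With regions of at least 200 bases, 6 members had a promoter region (beside 44.4% of all protein-coding genes), the share of Ivl and Lor was 0%, 21 regions were given to members, and the complex held 1.11 regions per 100 kb (genome 1.14). The S100a share was 64.3% both with any overlap within 1000 bases of a start and with the comprehensive annotation, beside 63.1 and 55.6% of all protein-coding genes. The share of Ivl and Lor was 0% where a region had to overlap a start. Regions given fell to 27 with the gene body only. With 100-base words, an alternative added after seeing the data like that of the 5'-most start, 4 members were under 90% unique. The number of members with a promoter region ranged from 6 to 14, and was 14 under both definitions that gave 64.3%. The Lce count was 0 under each alternative tried. No paired analysis was possible because no test was made and no column could be tied to a replicate. Peaks were merged over samples, so nothing is known here of a single group, and narrow regions decide several calls.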

Other observations

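Outside the complex, 14 of 26 other genes of the cornified envelope and its assembly had a promoter region (53.8%, 95% Wilson interval 35.5 to 71.2), beside 48.6% of all protein-coding genes, a value within that interval, and 16.9% of the members. Those with one were the cross-linking enzyme Tgm1, the desmosome and scaffold genes Dsp, Evpl, Ppl and Dsg1a, the keratins Krt5, Krt14 and Krt10, the protease Casp14, the lipid genes Abca12 and Aloxe3, and Krtdap, Sbsn and Dmkn. Those without were the transglutaminases Tgm3 and Tgm5, the keratins Krt1 and Krt2, the peptidases Klk5, Klk7 and Asprv1, the inhibitors Spink5 and Cst6, the adhesion genes Cdsn and Dsc1, and the lipoxygenase Alox12b. All 12 without were CpG-poor, as were Tgm1, Krt5, Krt14, Casp14, Dsg1a, Abca12, Krtdap, Sbsn and Dmkn of those with one. The CpG-poor genes of this list thus had a promoter region more often than the 15.2% of all CpG-poor protein-coding genes. No interval was computed for these CpG-poor genes, and the list was chosen with earlier results of these data known. Krt5 and Krt14 were also among the thymic epithelium markers, so the 2 lists share genes. The shares of the whole list, the members and all protein-coding genes were not matched in CpG content. Within the span of the complex, 2 of the 16 protein-coding genes that are no members had a promoter region (12.5%), the peptidoglycan recognition gene Pglyrp3 and the sperm gene Smcp. All 16 were CpG-poor, and 12.5% was near the 15.2% of all CpG-poor protein-coding genes.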
